A study of Homo sapiens with 16 samples.

Results

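The response to hypoxia of HCT116 cells with an shRNA against CDK8 (shCDK8) was measured in 4 of the 16 poly(A) RNA libraries of the series, chosen by their labels: 2 from cells held for 24 h at 1% oxygen (hypoxia) and 2 from cells held at 21% oxygen (normoxia). HCT116 is an established human colorectal carcinoma line, and the labels describe the members of each pair as independent biological replicates. The other 12 libraries came from 3 further HCT116 lines under the same pair of oxygen conditions, with 2 libraries each. One carries an shRNA with no target (shNT), another an shRNA that silences the histone acetyltransferase TIP60 (shTIP60), and the last has a deletion of HIF1A (HIF1Anull). All 3 shRNA lines express their hairpin stably and HIF1Anull is labelled with no shRNA, so shNT is the vector control of shCDK8 and HIF1Anull is not. There was 1 shCDK8 line, so effects of clone, vector or off-target silencing cannot be told apart from loss of CDK8, and p-values measure the spread between these cultures. In bulk RNA, fewer cells of a type and less RNA per cell cannot be told apart.

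When oxygen is plentiful, prolyl hydroxylases (EGLN1 to EGLN3) mark the alpha subunits of hypoxia-inducible factor (HIF) for capture by VHL and destruction. When oxygen falls, HIF1A or EPAS1 (HIF2 alpha) accumulates, pairs with ARNT, binds the core sequence ACGTG in promoters and enhancers, and raises genes for glucose uptake, glycolysis, acid export, blood vessel growth and mitophagy. CDK8 and its paralog CDK19 are the alternative kinases of the Mediator kinase module, which also holds cyclin C (CCNC), MED12 or MED12L, and MED13 or MED13L. The module binds the Mediator complex, which links transcription factors to RNA polymerase II, and it is known to act on pause release at HIF1A targets in HCT116 cells.

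The HIF core sequence is shown first in the promoters of genes with the largest rises in shCDK8 cells. Symbols of loci, clones, histones and small RNAs were left out of this ranking. So were symbols ending in P and digits, the form of many pseudogenes, with a few exceptions. That last pattern also removes coding genes such as BNIP3. Of the 12 genes with the largest called rise among those with at least 5 CPM in the higher group and groups that did not overlap, 10 had a promoter in the RefSeq table (GRCh38.p14; no entry for NDRG1 and SLC2A3), and 6 of these held ACGTG, on either strand, within 250 bases before the start. The stretches below are written 5′ to 3′ along the gene's own strand, with ACGTG or its reverse complement CACGT in capitals, and were placed on GRCh37 by exact match. CA9 is on the plus strand at chr9:35673675-35673924, DDIT4 on the plus strand at chr10:74033432-74033677, ALDOC on the minus strand at chr17:26903967-26904163 and MIR210HG on the minus strand at chr11:568458-568707, each ending before the gene's annotated first exon. The stretches of DDIT4 and ALDOC were trimmed for this, and those of CA9 and MIR210HG are the full 250 bases. For ANGPTL4 (plus strand, chr19:8428792-8428821) and ANKRD37 (plus strand, chr4:186317830-186317859) the window lay inside the annotated span of the gene, and 30 bases around the core are shown.
CA9: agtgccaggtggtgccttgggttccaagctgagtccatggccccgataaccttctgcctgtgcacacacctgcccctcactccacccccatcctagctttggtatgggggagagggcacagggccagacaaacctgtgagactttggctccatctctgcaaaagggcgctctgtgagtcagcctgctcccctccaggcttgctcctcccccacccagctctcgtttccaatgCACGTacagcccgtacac
DDIT4: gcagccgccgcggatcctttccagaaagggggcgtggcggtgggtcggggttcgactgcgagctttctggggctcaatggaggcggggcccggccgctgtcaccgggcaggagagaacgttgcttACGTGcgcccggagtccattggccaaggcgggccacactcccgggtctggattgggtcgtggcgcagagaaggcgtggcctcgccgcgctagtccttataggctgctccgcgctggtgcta
MIR210HG: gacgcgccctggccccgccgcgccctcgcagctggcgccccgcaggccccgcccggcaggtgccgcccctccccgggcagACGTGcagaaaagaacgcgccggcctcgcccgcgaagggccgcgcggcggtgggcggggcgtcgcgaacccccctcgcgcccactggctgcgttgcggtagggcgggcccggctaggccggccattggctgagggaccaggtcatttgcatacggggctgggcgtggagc
ALDOC: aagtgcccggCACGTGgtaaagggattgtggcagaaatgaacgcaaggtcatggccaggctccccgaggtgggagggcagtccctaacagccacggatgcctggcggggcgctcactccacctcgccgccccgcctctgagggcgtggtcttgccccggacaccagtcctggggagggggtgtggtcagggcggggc
ANGPTL4: gggaaagaagagtCACGTctcccacggttc
ANKRD37: ctcCACGTGccagtgtttgtgtACGTGcgg

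The core began 18 bases before the start in CA9, 125 in DDIT4, 170 in MIR210HG and 234 in ANGPTL4, while ANKRD37 held 3 matches, at 162, 161 and 143 bases, of which the first pair overlap in CACGTG. ALDOC also had 3 matches, of which the one 28 bases before the start lies beyond the stretch shown. The windows of CXCR4, ADM, PFKFB4 and GPR146 did not hold these letters. Over all 27305 promoters in the table, whether or not their genes were tested here, 18.7% held ACGTG in the same window. The share among tested genes alone is not given. Among a list of 40 core hypoxia genes taken from general knowledge of HIF targets, 37 were tested in these cells, 30 had a promoter entry and 19 of those (63.3%) held it. As the list was chosen for known HIF targets, its share is not independent of that choice. A match of letters does not show that HIF was bound there.

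Depth was 26620086 and 31339314 counts in the normoxia libraries A and B of shCDK8 and 38377063 and 37699048 in hypoxia. A and B denote the lower and higher series of library numbers, which were not tied to the replicate numbers of the labels. The low-count filter kept 15520 of 23669 genes. Levels are given as CPM (counts scaled to a common library total) scaled by trimmed mean of M-values (TMM) factors. Before scaling by these factors, 3 counts correspond to 0.0782 to 0.113 CPM in these libraries. Colorectal epithelial markers such as KRT8, KRT18 and EPCAM were expressed, and the blood and stromal markers PTPRC, CD3E, COL1A2, COL3A1, DCN and LUM had 0 to 2 counts in each of the 4 libraries. The summed level of the 15 markers of other cell types, without TMM factors, was 57.0 and 52.7 CPM in normoxia and 119.8 and 127.3 CPM in hypoxia, mostly from CD68, COL1A1 and ACTA2. The part of these markers in the results was not tested.

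CDK8 itself was at 5.77 and 6.80 CPM in the normoxia libraries of shCDK8 and at 5.84 and 5.45 CPM in hypoxia. In the 12 libraries of the other lines it lay between 21.9 and 35.1 CPM, so the knockdown line did not overlap any other. The log2 difference from shNT was -2.05 ± 0.14 (SE) in normoxia and -2.32 ± 0.14 in hypoxia (edgeR quasi-likelihood test, adjusted p = 8.3e-08 and 1.8e-08). Hypoxia gave a log2 change of -0.16 ± 0.15 in CDK8 within shCDK8 cells, with overlapping libraries (adjusted p = 0.46). The paralog CDK19 was at 19.5 and 25.3 CPM in normoxia and rose to 42.6 and 42.1 CPM (log2 0.92 ± 0.23, adjusted p = 0.0077). MED13L, a scaffold that joins the kinase to Mediator, rose from 218 and 182 to 292 and 321 CPM (0.62 ± 0.15). MED12, which activates the kinase, rose from 62.9 and 46.7 to 79.2 and 83.9 CPM (0.57 ± 0.15), and MED13 from 105 and 90.7 to 136 and 140 CPM (0.50 ± 0.16). Thus 4 of 7 module genes were called up, beside 13.8% of all genes tested, and CCNC (-0.32), MED12L (-0.34) and CDK8 did not pass the test. The calls of this module were sensitive to single libraries, with 1 of 7 called up without normoxia library B or without hypoxia library B. None of the 7 differed from shNT in its response at an adjusted p under 0.05.

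Across all genes, 3848 (24.8%) changed with hypoxia in shCDK8 cells, 2135 up (13.8%) and 1713 down (11%). These shares, 13.8% up and 11% down, are the background for each list count below. Rises were larger than falls: 704 called genes rose and 258 fell by more than 2-fold, 135 and 35 by more than 4-fold, and 49 and 8 by more than 8-fold. The median log2 change was 0.79 among those called up, -0.65 among those called down and -0.0016 over all genes tested. Both hypoxia libraries lay above both normoxia libraries in 32% of all genes tested and below them in 30.6%. Among the calls, which were made on the same 4 libraries, 2134 of 2135 rises and 1713 of 1713 falls had this separation, as the call all but requires. Scaling by library totals moved the median of all genes to -0.16, and the share of calls that were rises went from 55.5% to 31.9%. Without normoxia library B, 2115 genes were called, 1846 without hypoxia library B and 2502 without hypoxia library A.

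The 12 largest rises were taken within these limits (5 CPM in the higher group, no overlap, the same symbols left out). Among them CXCR4, the receptor of the chemokine CXCL12, went from 0.359 and 0.501 CPM in normoxia to 7.27 and 8.02 CPM (log2 4.12 ± 0.40, adjusted p = 2.7e-06). ALDOC, the brain-type aldolase, rose from 29.3 and 20.6 to 375 and 356 CPM (3.88 ± 0.21). MIR210HG, the host transcript of the hypoxic microRNA miR-210, rose from 6.10 and 3.30 to 60.8 and 61.6 CPM (3.72 ± 0.34). ADM, the vasodilator peptide adrenomedullin, rose from 36.2 and 32.6 to 391 and 490 CPM (3.68 ± 0.19), and the orphan receptor gene GPR146 from 0.394 and 0.501 to 4.03 and 6.27 CPM (3.499 ± 0.31). In each of these genes the hypoxia libraries stood well clear of the normoxia libraries. CA9, with the largest of these rises, had only 2 and 6 counts in the normoxia libraries against 236 and 260 in hypoxia, so its log2 fold change of 5.69 ± 0.41 rests on few normoxic reads. SLC2A3 shares reads with its near-identical copy SLC2A14, and its count is uncertain.

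**Figure D1:**
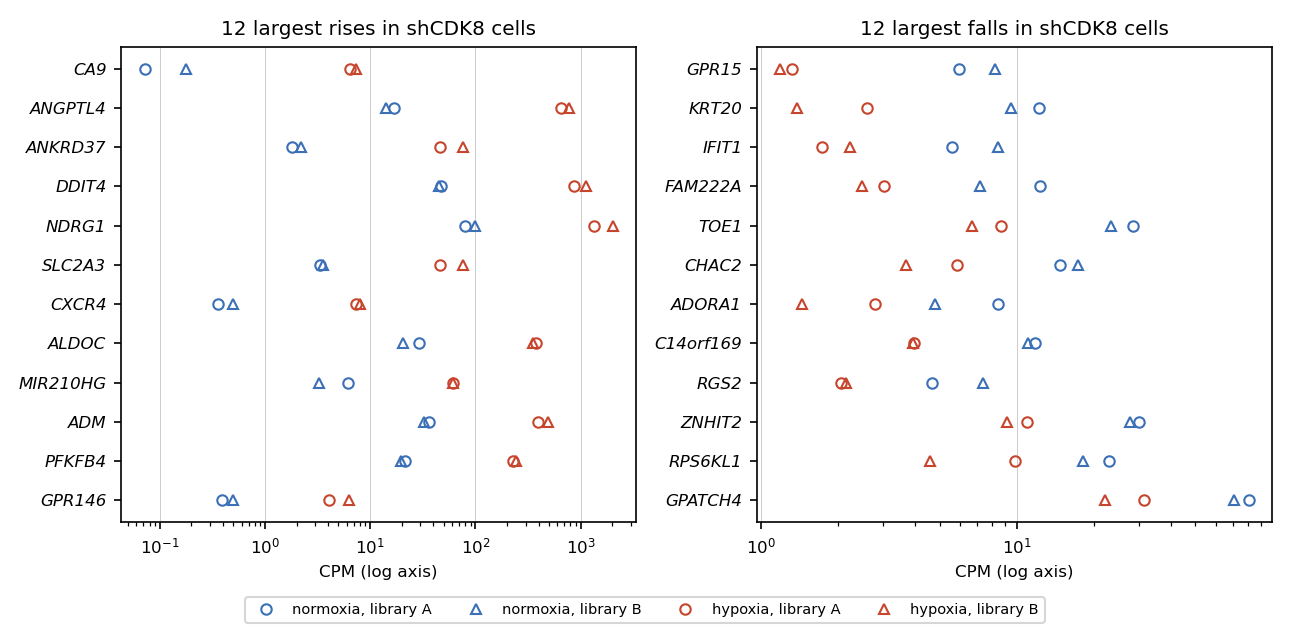
Level of the 12 genes with the largest called rise (left) and the 12 with the largest called fall (right) in shCDK8 cells, among genes with at least 5 CPM in the higher group, in CPM on a log axis, with a symbol for each library (blue normoxia, red hypoxia, circles library A, triangles library B). The hypoxia pair lies wholly to one side of the normoxia pair in each gene, as their choice required. Among these genes the gaps are wider for the rises than for the falls. Genes were ranked after the exclusions by symbol given in the text.

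Under the same limits, the 12 largest falls ran from a log2 change of -2.49 to -1.50. TOE1, a nuclear deadenylase, went from 28.5 and 23.4 CPM to 8.70 and 6.66 CPM (log2 -1.75 ± 0.32, adjusted p = 0.00094), and CHAC2, an enzyme of glutathione breakdown, from 14.7 and 17.3 to 5.84 and 3.67 CPM (-1.75 ± 0.25). ADORA1, an adenosine receptor, went from 8.43 and 4.80 to 2.78 and 1.44 CPM (-1.63 ± 0.34), and RGS2, a regulator of G-protein signalling, from 4.66 and 7.36 to 2.05 and 2.15 CPM (-1.53 ± 0.22). ZNHIT2 (-1.52 ± 0.27), RPS6KL1 (-1.51 ± 0.30) and GPATCH4 (-1.50 ± 0.31) completed the 12 together with GPR15, KRT20, IFIT1, FAM222A and C14orf169. RPS6KL1 had the widest spread of these between hypoxia libraries, at 9.83 and 4.57 CPM.

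The oxygen-sensing genes themselves responded in both directions. HIF1A mRNA fell from 111 and 113 to 53.4 and 59.8 CPM (log2 -0.98 ± 0.15, adjusted p = 0.00022), while EPAS1 rose from 36.2 and 29.2 to 68.7 and 71.5 CPM (1.10 ± 0.13, adjusted p = 2.6e-05). The hydroxylase genes EGLN3, at 7.28 and 5.74 against 58.6 and 74.5 CPM (3.36 ± 0.21), and EGLN1, at 59.4 and 58.3 against 190 and 198 CPM (1.72 ± 0.13), rose. Both are themselves HIF targets in many cells. The dimer partners ARNT (0.51 ± 0.16) and ARNT2 (-0.50 ± 0.16) moved oppositely by small amounts, and both calls were lost when single libraries were left out (4 of 4 omissions for ARNT and 3 of 4 for ARNT2). VHL (0.01 ± 0.15), the asparaginyl hydroxylase gene HIF1AN (-0.02 ± 0.11), and EGLN2 and HIF3A, both under 1 CPM, did not pass the test. In all, 4 of 10 genes of this list rose and 2 fell. HIF1A-AS2, an antisense transcript at HIF1A, is listed at 0.108 and 0.0295 CPM in normoxia and 0.919 and 0.931 CPM in hypoxia. The strand setting of the counting is not given in the sources used here, so its reads cannot be told apart from those of HIF1A.

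All 37 core hypoxia genes tested were called up, with a median log2 change of 2.42, against 13.8% of all genes and a median of -0.0016. The smallest adjusted p-values belonged to ANGPTL4, an inhibitor of lipoprotein lipase, and to PFKFB4, which sets the level of the glycolytic activator fructose 2,6-bisphosphate and rose from 21.5 and 19.5 to 229 and 242 CPM (log2 3.52 ± 0.15, adjusted p = 7.3e-10). PPFIA4, a liprin scaffold gene, rose from 7.35 and 7.599 to 68.8 and 74.2 CPM (3.26 ± 0.16). BHLHE40, a repressor that links hypoxia to the clock, rose from 63.2 and 60.2 to 516 and 622 CPM (3.20 ± 0.16). DDIT4, an inhibitor of mTORC1, rose from 47.1 and 44.9 to 872 and 1115 CPM (4.43 ± 0.22). The smallest rises of the list were in PFKFB3 (0.61 ± 0.14), from 91.9 and 68.7 to 121 and 125 CPM, and the carbonic anhydrase CA12 (0.85 ± 0.16), from 3.37 and 3.30 to 6.46 and 5.53 CPM. Leaving out a single library left 36 or 37 of the 37 called. These genes were listed as known HIF targets, so the direction is not independent evidence.

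Of 11 genes for glucose uptake and the upper steps, 9 were called up and 1 down, with a median of 1.70. The ubiquitous glucose transporter gene SLC2A1 went from 291 and 231 to 1236 and 1202 CPM (log2 2.22 ± 0.18, adjusted p = 3.9e-07). HK2, the inducible hexokinase, went from 45.0 and 27.6 to 286 and 355 CPM (3.14 ± 0.26), HK1 from 101 and 85.9 to 299 and 310 CPM (1.70 ± 0.14), and GPI, glucose-6-phosphate isomerase, from 707 and 482 to 2570 and 2533 CPM (2.10 ± 0.17). The phosphofructokinase genes split by isoform: PFKP (1.39 ± 0.21) and PFKL (1.09 ± 0.20) rose, whereas PFKM, the muscle form, had a change of -0.0021 and was not called. PFKFB2 fell slightly, from 22.2 and 22.1 to 17.6 and 15.6 CPM (-0.42 ± 0.14, adjusted p = 0.035), a call lost in each of the 4 omissions of a library.

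Of 13 genes for the lower steps and lactate handling, 11 rose and 1 fell, with a median of 1.31. ENO2, the neuronal enolase, rose most clearly, from 84.5 and 75.7 to 670 and 809 CPM (log2 3.21 ± 0.14, adjusted p = 8.8e-10), and the ubiquitous form ENO1 from 3177 and 2752 to 6818 and 7199 CPM (1.24 ± 0.15). ALDOA (1.97 ± 0.15), PGK1 (1.84 ± 0.16), PKM (1.44 ± 0.15), GAPDH (1.31 ± 0.14), PGAM1 (1.07 ± 0.14) and TPI1 (0.75 ± 0.12) also rose. The lactate carriers moved apart: SLC16A3 (MCT4), which exports lactate, rose from 594 and 519 to 1258 and 1176 CPM (1.13 ± 0.19), and SLC16A1 (MCT1) fell from 136 and 138 to 98.5 and 83.6 CPM (-0.59 ± 0.13, adjusted p = 0.0045). LDHB, the heart-type lactate dehydrogenase subunit, had a change of -0.38 and was not called. Together 8 glycolytic enzyme genes took 1.43 and 1.25% of all counts in the normoxia libraries and 3.29 and 3.41% in the hypoxia libraries. Several of these genes have processed pseudogenes, and reads shared with them are uncertain.

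PDK1, a kinase that shuts off pyruvate dehydrogenase, rose from 12.2 and 9.69 to 94.1 and 100 CPM (log2 3.15 ± 0.20, adjusted p = 3.5e-08), and PDK3 from 15.6 and 17.0 to 42.4 and 51.8 CPM (1.53 ± 0.17). Of 27 genes for pyruvate dehydrogenase and the citric acid cycle, 3 rose (IDH2, 0.53 ± 0.13, with PDK1 and PDK3) and 3 fell (IDH3A, -0.58 ± 0.14; SUCLA2, -0.52 ± 0.13; FH, -0.45 ± 0.14), near the 13.8% and 11% of all genes. The median of the list was -0.07. Falls numbered 6 without normoxia library A, 0 without normoxia library B, 1 without either hypoxia library and 9 with library totals. Of 36 respiratory chain genes, 8 fell and 2 rose, against 11% and 13.8% of all genes, with a median of -0.27. ISCU, the iron-sulfur scaffold, fell from 76.9 and 90.1 to 42.7 and 47.3 CPM (-0.89 ± 0.14), and UQCRFS1, the Rieske protein of complex III, from 66.0 and 66.9 to 43.1 and 45.1 CPM (-0.59 ± 0.12). The number called down ranged from 3 (without normoxia library B) to 14 (without normoxia library A), was 4 without either hypoxia library, and was 16 with library totals. TFAM, which maintains mitochondrial DNA, fell from 35.5 and 39.8 to 22.3 and 19.4 CPM (-0.85 ± 0.15), with 5 of 15 genes of mitochondrial upkeep and import called down and 1 up.

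Glycogen genes rose in part, with 5 of 10 called up and none down. GBE1, the branching enzyme, went from 39.8 and 40.1 to 156 and 161 CPM (log2 1.99 ± 0.13), PPP1R3B, a glycogen-targeting phosphatase subunit, from 20.1 and 18.4 to 64.8 and 85.6 CPM (1.96 ± 0.20), and GYS1, glycogen synthase, from 85.9 and 60.6 to 223 and 204 CPM (1.55 ± 0.16, adjusted p = 4.6e-06). PGM1 (0.85 ± 0.12) and PYGL, liver glycogen phosphorylase (0.51 ± 0.11), rose less. Among 8 genes of acid and bicarbonate transport, CA9, CA12 and SLC16A3 rose and the cytosolic carbonic anhydrase CA2 fell from 57.9 and 70.2 to 45.9 and 40.5 CPM (-0.57 ± 0.14).

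Secreted and receptor genes of blood vessel growth were mostly raised: 12 of 14 were called up and 1 down, with a median of 1.72. VEGFA, the main vascular growth factor, went from 62.7 and 58.2 to 244 and 245 CPM (log2 2.02 ± 0.15, adjusted p = 1.9e-07). PDGFA (2.33 ± 0.22) rose from 21.3 and 21.2 to 75.9 and 138 CPM, and hypoxia library B was the higher by a wide margin. EFNA3 (1.81 ± 0.15) and PDGFB (1.32 ± 0.18) also rose, whereas PGF, placental growth factor, fell from 12.1 and 10.8 to 8.27 and 5.39 CPM (-0.74 ± 0.23, adjusted p = 0.026). The count of rises was 8 without normoxia library B.

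Enzymes that modify collagen in the secretory pathway rose as a block of 6 among 13, with 1 fall. P4HA1 (log2 3.05 ± 0.19) and P4HA2 (1.64 ± 0.15), prolyl 4-hydroxylase subunits, PLOD2 (2.92 ± 0.19) and PLOD1 (1.53 ± 0.17), lysyl hydroxylases, and LOXL2, a lysyl oxidase (2.16 ± 0.18), rose. PLOD2 went from 19.5 and 23.9 to 160 and 169.4 CPM. P4HB, protein disulfide isomerase, rose from 1341 and 1178 to 2463 and 2529 CPM (0.99 ± 0.14), and LOXL3 fell from 6.67 and 5.21 to 4.21 and 2.29 CPM (-0.86 ± 0.30, adjusted p = 0.049). Each of the 4 omissions of a library also gave 6 rises, and the fall was called in 1 of the 4, that of hypoxia library A.

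The mitophagy receptor genes BNIP3 and BNIP3L, together with FAM162A, led a broader list. BNIP3 went from 22.4 and 27.7 to 150 and 170 CPM (log2 2.67 ± 0.17), BNIP3L from 30.01 and 39.3 to 246 and 293 CPM (2.96 ± 0.19) and FAM162A from 50.8 and 60.5 to 230 and 273 CPM (2.18 ± 0.14, adjusted p = 3.5e-08). The receptor gene FUNDC1 instead fell, from 20.3 and 20.5 to 13.4 and 15.02 CPM (-0.52 ± 0.14). Of 15 genes, 8 were called up and 1 down, including MAP1LC3B (0.68 ± 0.18), GABARAPL1 (0.67 ± 0.17) and ULK1 (0.58 ± 0.16). The rises beyond the first 3 depended on the setting, with 4 rises called without either library B or without normoxia library A, and 3 with library totals.

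Among 20 JmjC oxygenase genes, whose products use oxygen to demethylate or hydroxylate histones and ribosomal proteins, 12 rose and 2 fell. KDM3A went from 36.97 and 42.5 to 220 and 269 CPM (log2 2.62 ± 0.19), KDM4B from 86.2 and 72.0 to 287 and 277 CPM (1.83 ± 0.16), KDM4C from 16.7 and 16.4 to 47.5 and 52.2 CPM (1.59 ± 0.12, adjusted p = 2.7e-07) and KDM6B from 69.3 and 36.3 to 144 and 141 CPM (1.44 ± 0.21). The falls were both in ribosomal oxygenases: C14orf169 (NO66) from 11.8 and 11.0 to 3.94 and 3.92 CPM (-1.53 ± 0.19) and MINA from 65.3 and 69.4 to 40.6 and 36.3 CPM (-0.81 ± 0.12, adjusted p = 0.00017). Rises numbered 7 without normoxia library B or without hypoxia library B, and 8 with library totals.

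**Figure D2:**
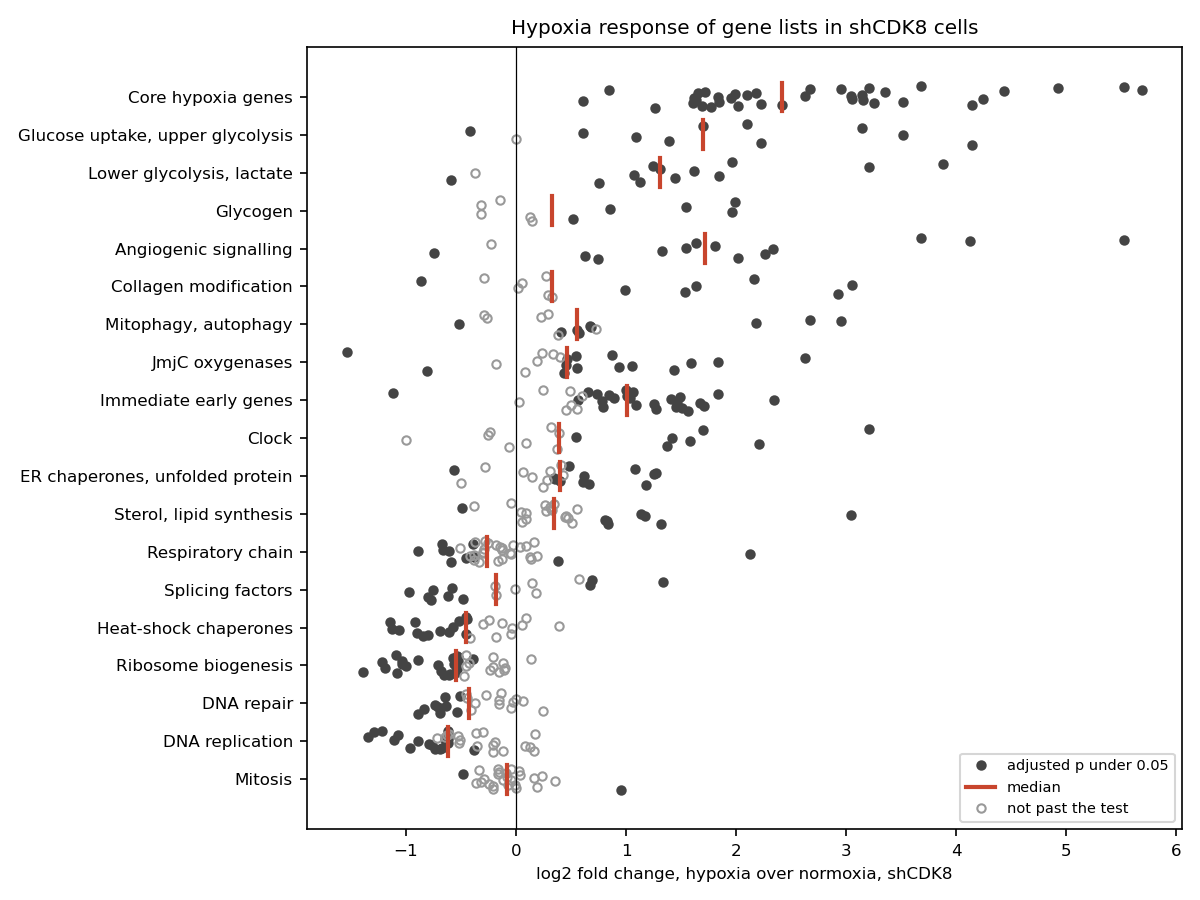
Log2 fold change, hypoxia over normoxia, of each tested member of 19 gene lists in shCDK8 cells (points, filled where the adjusted p was under 0.05), with the median of each list as a red bar. Core hypoxia genes lie wholly to the right of 0 (median 2.42), and DNA replication (-0.62) and ribosome biogenesis genes (-0.55) lie mostly to the left.

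Immediate early genes, which answer growth factors and stress within minutes in many cells, were called up in 24 of 32 and down in 1, with a median of 1.00. FOSL2, an AP-1 subunit, rose from 52.1 and 42.9 to 241 and 242 CPM (log2 2.35 ± 0.15, adjusted p = 3.2e-08), and DUSP5, a nuclear ERK phosphatase, from 106 and 116 to 305 and 488 CPM (1.84 ± 0.19). KLF4 (1.71 ± 0.16), ZFP36 (1.56 ± 0.18), NR4A1 (1.51 ± 0.18) and KLF6 (1.46 ± 0.17) rose as well. DUSP2, which is repressed by HIF1A in cancer cells, fell from 35.9 and 33.1 to 17.5 and 14.3 CPM (-1.12 ± 0.17). Without hypoxia library B, 15 of the 32 were called up, and without normoxia library B, 16.

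Of 15 clock genes 7 were called up and none down, against 13.8% and 11% of all genes, among them PER1 from 85.9 and 47.4 to 235 and 381 CPM (log2 2.21 ± 0.27), PER2 from 23.1 and 16.4 to 44.7 and 57.5 CPM (1.37 ± 0.16), DBP (1.41 ± 0.22) and NR1D1 (1.58 ± 0.24). Of 16 mTOR inhibitor, arrestin and stress genes 6 were called up and none down, including NDRG1 at 79.2 and 98.3 against 1329 and 2027 CPM (4.24 ± 0.27), ARRDC3 at 18.8 and 16.3 against 86.0 and 112 CPM (2.49 ± 0.23) and ERRFI1, an inhibitor of the EGF receptor, at 458 and 507 against 2182 and 2745 CPM (2.35 ± 0.20). The EGF receptor gene EGFR (0.99 ± 0.17) and its ligand genes TGFA (1.33 ± 0.14) and AREG (0.89 ± 0.18) rose too, 3 of 11 in that list, with none called down. Of 18 genes of NF-kB and its feedback 5 rose and none fell, led by NFKB2 (1.25 ± 0.14), LIF (1.198 ± 0.15) and BIRC3 (1.24 ± 0.22). These counts stand beside 13.8% up and 11% down of all genes.

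Of 36 DNA replication genes, 18 were called down and none up, against 11% and 13.8% of all genes, with a median of -0.62. CCNE2, cyclin E2, went from 32.0 and 39.1 to 17.3 and 13.3 CPM (log2 -1.22 ± 0.21, adjusted p = 0.00072). CDC25A, which activates CDK2, went from 51.8 and 41.0 to 20.6 and 17.2 CPM (-1.29 ± 0.27), GINS3 from 31.8 and 27.7 to 15.2 and 12.4 CPM (-1.11 ± 0.22), and the helicase subunit gene MCM6 from 183 and 192 to 104 and 113 CPM (-0.79 ± 0.16). RFC3, a clamp loader subunit, fell by 0.74 ± 0.15 and POLE2, a DNA polymerase subunit, by 0.97 ± 0.19 on the log2 scale. Between 10 and 13 of the 36 were called down when a library was left out, 10 without either hypoxia library. Of 22 DNA repair genes, 9 fell and none rose, including the mismatch repair gene MSH6 (-0.63 ± 0.13) and RAD51C (-0.84 ± 0.16). Falls in repair numbered 3 without hypoxia library B, 6 without normoxia library B and 14 with library totals.

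Of 26 mitosis genes, CCNB1 was the 1 called down, from 309 and 333 to 225 and 234 CPM (log2 -0.48 ± 0.14, adjusted p = 0.018), and UBE2C the 1 called up, from 101 and 104 to 178 and 220 CPM (0.96 ± 0.19), and the median was -0.09. Falls numbered 2 without normoxia library A, 0 in the other 3 omissions of a library and 3 with library totals. Inhibitors of cyclin-dependent kinases rose: CDKN1C (p57) from 11.1 and 14.6 to 49.0 and 56.0 CPM (2.03 ± 0.18, adjusted p = 1.3e-06), CDKN2D (1.02 ± 0.17), CDKN2B (0.89 ± 0.18), CDKN1B (p27, 0.62 ± 0.12) and CDKN1A (p21, 0.46 ± 0.12). CDK4 (-0.43 ± 0.14) and RBL1 (-0.58 ± 0.19) fell in that list of 14, where falls numbered 1 without normoxia library A, 0 in the other 3 omissions and 3 with library totals. Among 23 p53 targets 5 rose and 1 fell, against 13.8% and 11% of all genes. GDF15 led the rises, from 195 and 177 to 487 and 464 CPM (1.35 ± 0.13). C12orf5 (TIGAR), which lowers glycolytic flux, fell from 30.2 and 31.1 to 15.7 and 11.5 CPM (-1.17 ± 0.18). Without hypoxia library B, 3 of the p53 targets were called up.

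Of 34 ribosome biogenesis genes, 22 were called down and none up, against 11% and 13.8% of all genes, with a median of -0.55. NIP7 went from 122 and 118 to 53.5 and 50.04 CPM (log2 -1.22 ± 0.12, adjusted p = 5.2e-06), PNO1 from 47.7 and 52.5 to 22.7 and 21.1 CPM (-1.19 ± 0.15), BRIX1 from 94.6 and 129 to 49.3 and 55.4 CPM (-1.09 ± 0.15) and NOP58, of the methylating nucleolar complex, from 146 and 184 to 81.6 and 83.4 CPM (-1.004 ± 0.14). Without hypoxia library B, 11 of the 34 were called. Of 24 heat-shock chaperone genes, 14 fell and none rose, with a median of -0.46. DNAJA1 went from 299 and 380 to 158 and 149 CPM (-1.15 ± 0.14), HSPA8, the constitutive HSP70, from 1390 and 1433 to 785 and 724 CPM (-0.90 ± 0.20) and HSPA4 from 318 and 354 to 209 and 206 CPM (-0.69 ± 0.13). HSPA1A and HSPA1B are near-identical copies, and their values (-1.13 ± 0.28 and -1.06 ± 0.23) are uncertain. Only 4 chaperone genes were called without hypoxia library B, 5 without normoxia library B and 6 without hypoxia library A.

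Of 21 genes of the unfolded protein response in the endoplasmic reticulum, 11 were called up and 1 down, with a median of 0.40. SYVN1, a ubiquitin ligase that clears misfolded proteins, rose from 51.4 and 39.4 to 97.1 and 108 CPM (log2 1.18 ± 0.13, adjusted p = 1.5e-05), EDEM1 from 23.6 and 31.3 to 55.2 and 77.0 CPM (1.27 ± 0.21), and HERPUD1 from 37.1 and 36.0 to 71.2 and 103 CPM (1.25 ± 0.23). DNAJB11 fell from 98.1 and 101 to 69.4 and 65.4 CPM (-0.56 ± 0.15). Most of the smaller rises were not stable, with 3 to 6 of 21 called up when a library was left out (3 without hypoxia library B, 4 without normoxia library A, 5 without normoxia library B, 6 without hypoxia library A) and 4 with library totals. Of 24 targets of ATF4, which drives amino acid synthesis under stress, 1 rose and 2 fell, against 13.8% and 11% of all genes. STC2 rose (1.69 ± 0.21) and NARS (-0.48 ± 0.12) and PSAT1 (-0.54 ± 0.15) fell, and the median of the list was -0.06. Falls numbered 2 without normoxia library A, 1 without hypoxia library A, 0 without either library B and 5 with library totals.

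Of 25 genes of sterol and fatty acid synthesis, 7 rose and 1 fell, against 13.8% and 11% of all genes. INSIG2, which retains the SREBP transcription factors in the endoplasmic reticulum, rose from 8.43 and 11.3 to 69.4 and 94.4 CPM (log2 3.05 ± 0.24, adjusted p = 2.9e-07). Smaller rises were called in INSIG1 (1.138 ± 0.20), STARD4 (1.32 ± 0.24), SREBF2 (0.84 ± 0.14) and SCD (0.83 ± 0.16), and ELOVL6 fell (-0.49 ± 0.15). Of 16 splicing regulator genes, 7 fell, 3 rose and 6 were not called, against 11% down and 13.8% up of all genes. The SR protein genes SRSF3, from 331 and 352 to 173 and 175 CPM (-0.97 ± 0.12), SRSF7 (-0.80 ± 0.12), SRSF6 (-0.62 ± 0.13) and SRSF2 (-0.76 ± 0.16) fell with TRA2A, TRA2B and SRSF10. CLK3, a kinase of SR proteins, rose from 56.0 and 53.3 to 129 and 148 CPM (1.34 ± 0.14) with CLK2 (0.69 ± 0.13) and SRRM2 (0.67 ± 0.18). Among 12 tested epithelial marker genes 7 rose, including CLDN4 (1.18 ± 0.15), CLDN7 (0.94 ± 0.16) and KRT19 (1.06 ± 0.16), and KRT20, a keratin of mature colon cells, fell from 12.2 and 9.51 to 2.59 and 1.38 CPM (-2.44 ± 0.37). Interferon-stimulated genes showed 2 rises and 4 falls among 28 (13.8% and 11% of all genes; 2 falls without either library B), with CMPK2 falling from 1.51 and 0.972 to 0.270 and 0.226 CPM (-2.29 ± 0.39) and ISG20 rising from 6.49 and 7.13 to 21.0 and 24.5 CPM (1.74 ± 0.21). Wnt feedback genes gave 1 call among 11, the fall of SP5 (-0.81 ± 0.28), and 3 falls with library totals. The SP5 call was lost in most omissions of a library.

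The response of shCDK8 was then set against those of the other lines, which share no library with it. The study's lines pose the question of how much of the response depends on each factor. The spread of log2 changes over all 15520 genes was narrower in shCDK8, with an interquartile range of 0.69, than in shNT (0.92), shTIP60 (0.87) and HIF1Anull (0.86), and calls numbered 3848 against 6311 (40.7%), 6083 (39.2%) and 5893 (38%). Across genes, which are not independent replicates, Pearson r with the shCDK8 response was 0.65 for shNT, 0.67 for shTIP60 and 0.39 for HIF1Anull. Of the 3848 genes called in shCDK8, 98.5% had the same sign in shNT, 98.4% in shTIP60 and 85.2% in HIF1Anull. A test of the difference of responses, gene by gene, called 6 genes (0.0387%; 0.00644% higher and 0.0322% lower) against shNT, 6 (0.0387%, all lower) against shTIP60 and 1800 (11.6%) against HIF1Anull. Unadjusted p was under 0.05 for 1695, 1515 and 4174 genes.

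**Figure D3:**
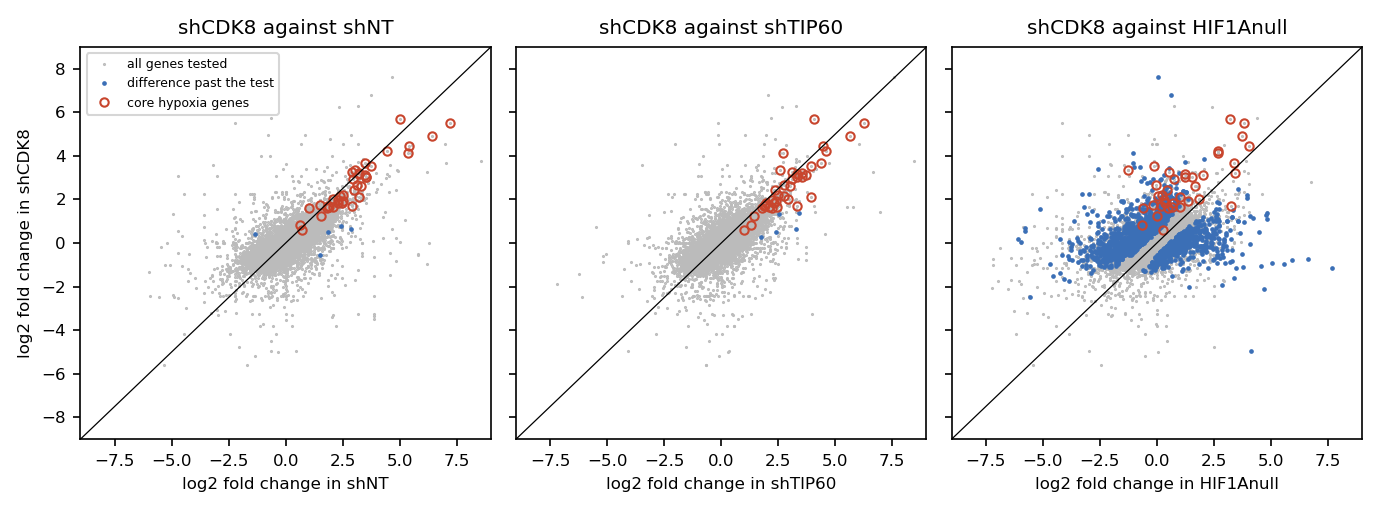
Log2 fold change, hypoxia over normoxia, of each of 15520 genes in shCDK8 (vertical) against shNT, shTIP60 and HIF1Anull (horizontal), with the line of equal response; red circles are 37 core hypoxia genes and blue points are other genes whose difference passed the test (adjusted p under 0.05). Core genes lie near the line against shNT and shTIP60, mostly a little below it, and 35 of 37 lie above it against HIF1Anull.

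The counts against shNT and shTIP60 depended on how the spread was estimated. DESeq2 called 225 and 197 genes, a fit with no filter on low counts 384 and 207, and leaving out a library gave 1 to 12 and 1 to 7. Against shNT the omissions that moved the count by over 1.5 times were hypoxia library A of shCDK8 (1 gene), both normoxia libraries of shNT (2 each) and hypoxia library A of shNT (12). Against shTIP60 every omission but that of normoxia library A of shCDK8 (7 genes) gave 1 to 3 genes. In the fit with no filter the prior degrees of freedom of the spread were infinite, so that all genes shared the fitted trend, whereas the median was 7.78 with the filter.

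DUSP1, a phosphatase that shuts off p38 and JNK kinases, was the gene called in all 3 differences. In shCDK8 it was at 13.1 and 10.5 CPM in normoxia and 17.8 and 19.3 CPM in hypoxia (log2 0.66 ± 0.17, adjusted p = 0.010). In shNT it went from 8.01 and 7.83 to 50.6 and 66.3 CPM (2.88 ± 0.18), in shTIP60 from 9.22 and 11.3 to 104 and 98.9 CPM (3.30 ± 0.18) and in HIF1Anull from 8.58 and 9.47 to 43.2 and 53.8 CPM (2.43 ± 0.17). All 6 hypoxia libraries of the other lines stood above both of shCDK8, and the 8 normoxia libraries lay between 7.83 and 13.1 CPM. The shCDK8 response was lower by 2.23 ± 0.24 against shNT (adjusted p = 0.0015), by 2.64 ± 0.24 against shTIP60 (adjusted p = 0.00013) and by 1.77 ± 0.24 against HIF1Anull (adjusted p = 0.00032). The calls against shNT and shTIP60 held under the 8 other settings run for single genes and in each of the 8 omissions of a library per comparison. The small rise within shCDK8 was not called without either library B.

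TFRC, the transferrin receptor gene, was the single gene with a higher response than in shNT. It was at 224 and 191 CPM in normoxia and 311 and 244 CPM in hypoxia in shCDK8, where the change of 0.42 ± 0.16 was not called (adjusted p = 0.061). In shNT it fell from 360 and 332 to 153 and 118 CPM (-1.35 ± 0.16), and in HIF1Anull from 265 and 261 to 127 and 106 CPM (-1.17 ± 0.16). No change was called in shTIP60 either, at 359 and 372 CPM in normoxia and 309 and 317 CPM in hypoxia (-0.22 ± 0.16). The difference was 1.77 ± 0.22 against shNT (adjusted p = 0.0047) and 1.59 ± 0.22 against HIF1Anull (adjusted p = 0.00038), while against shTIP60 it was 0.64 ± 0.22 and not called (adjusted p = 0.32). Without hypoxia library A of shCDK8 the difference from shNT was 1.59 (adjusted p = 0.051).

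**Figure D4:**
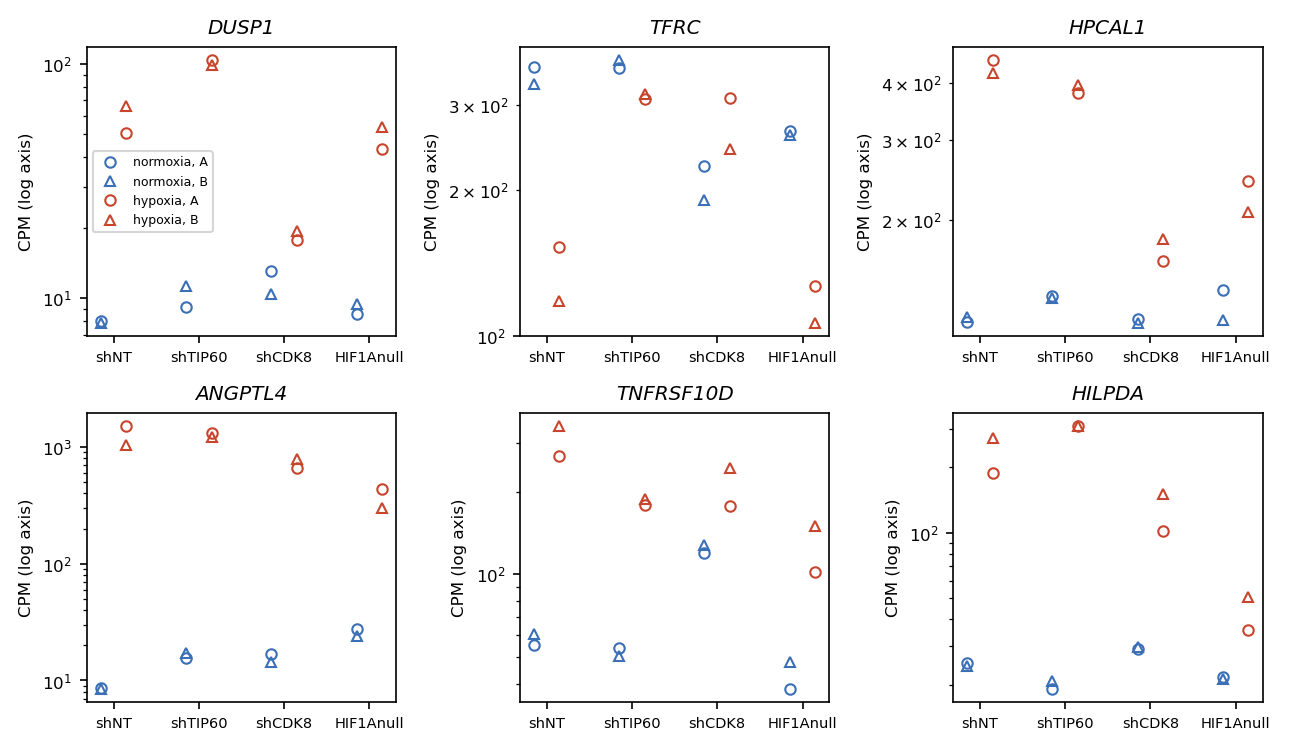
Level of 6 genes whose hypoxia response in shCDK8 differed from that of shNT or shTIP60, in CPM on a log axis, in all 16 libraries (blue normoxia, red hypoxia, circles library A, triangles library B). DUSP1 stays under 20 CPM in shCDK8 hypoxia against 43.2 CPM or more in the other lines. TFRC falls in shNT and HIF1Anull, while no change is called in shCDK8 or shTIP60.

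The other 4 genes with a lower response than in shNT had adjusted p-values of 0.0076 (HPCAL1) to 0.049 in the same test, higher than those of DUSP1 and TFRC. HPCAL1, a neuronal calcium sensor gene, went from 121 and 119 to 163 and 182 CPM in shCDK8 and from 119 and 122 to 450 and 422 CPM in shNT (difference -1.33 ± 0.18, adjusted p = 0.0076). ANGPTL4 reached 659 and 783 CPM from 17.0 and 14.3 in shCDK8, and 1510 and 1031 CPM from 8.56 and 8.41 in shNT (difference -1.70 ± 0.28, adjusted p = 0.049). HOXA4 (difference -2.06 ± 0.32, adjusted p = 0.030) rose in shNT from 1.23 and 1.39 to 3.80 and 3.70 CPM, and in shCDK8 it was at 5.95 and 4.77 against 3.62 and 3.70 CPM. TNFRSF10D, a decoy receptor for the death ligand TRAIL, started higher in shCDK8, at 120 and 128 against 55.3 and 60.9 CPM, and ended at 178 and 245 against 270 and 347 CPM (difference -1.64 ± 0.27, adjusted p = 0.049). The call was lost in 3 of 8 omissions of a library for HPCAL1, 7 for ANGPTL4, 7 for HOXA4 and 6 for TNFRSF10D.

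Against shTIP60 the 6 genes were all lower in shCDK8: DUSP1, TSC22D3 (difference -2.04 ± 0.33), CTGF (-1.91 ± 0.31), HILPDA (-1.86 ± 0.28), FAM89B (-1.45 ± 0.20) and GDF15 (-1.19 ± 0.18). HILPDA, a lipid droplet protein, went from 29.1 and 29.8 to 102 and 151 CPM in shCDK8 and from 19.03 and 20.7 to 308 and 310 CPM in shTIP60 (adjusted p = 0.029). TSC22D3, a glucocorticoid-induced regulator, went from 8.32 and 8.07 to 19.4 and 23.0 CPM in shCDK8 and from 10.1 and 9.73 to 114 and 97.8 CPM in shTIP60 (adjusted p = 0.036). CTGF, a YAP target, was at 4.34 and 4.54 against 5.38 and 7.14 CPM in shCDK8, and rose from 8.39 and 11.7 to 56.5 and 49.96 CPM in shTIP60 (adjusted p = 0.036). Apart from DUSP1, each of these calls was lost in 4 to 8 of the 8 omissions of a library.

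For the core hypoxia list the median change was 2.42 in shCDK8, 2.95 in shNT and 2.75 in shTIP60. The shCDK8 response was the lower in 29 of 37 genes against shNT and in 32 of 37 against shTIP60, and 1 gene was called in each (ANGPTL4 and HILPDA), where 7399 and 7271 of all 15520 genes were lower. DESeq2 called 6 and 4 core genes lower and the fit with no filter 6 and 3, and the lowest count on omission of a library was 0 in both comparisons. For the DNA replication list, of which 18 members were called down in shCDK8 against 32 in shNT (20% of all genes) and 34 in shTIP60 (19.8%), the median was -0.62 in shCDK8, -1.48 in shNT and -1.43 in shTIP60. In 36 of 36 members the response was less negative in shCDK8 than in either line, against 8116 and 8247 of 15520 genes with a higher response. These all-gene counts, here and for the core list, take in rising and falling genes alike. The spread over all genes was narrower in shCDK8 (interquartile range 0.69) than in shNT (0.92) or shTIP60 (0.87). Shares among only the genes that rose or fell were not computed. For DNA repair the medians were -0.43, -1.09 and -1.18, with all 22 members less negative than in either line. HIF1Anull was near shCDK8 in both lists, with medians of -0.57 for replication and -0.39 for repair. Against HIF1Anull, 15 of 36 replication and 10 of 22 repair members had the higher response in shCDK8. None of these 36 or 22 members was called individually in the difference from shNT or shTIP60. A fit of only the groups compared called 0 replication and 0 repair genes higher against shNT. There DESeq2 called 10 and 3, and the fit with no filter 23 and 7. Against shTIP60 these were 3 and 6 with DESeq2, 15 and 8 with no filter, and 12 and 5 when only the groups compared were fitted.

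Against HIF1Anull, 1104 genes (7.11%) had a higher response in shCDK8 and 696 (4.48%) a lower one. For 107 of these the response was called in both lines with opposite signs, 86 up in shCDK8 and 21 down. The 1800 became 755 without hypoxia library A of shCDK8, 1036 without its normoxia library B, and 839 without hypoxia library B of HIF1Anull. Of the 37 core hypoxia genes, 28 responded more in shCDK8, 1 less (STC2, difference -1.57 ± 0.29, adjusted p = 0.0030), and 8 were not called, and the median in HIF1Anull was 0.74. EGLN3 showed the largest gap in the list, at 58.6 and 74.5 CPM in hypoxia in shCDK8 and 4.39 and 2.53 CPM in HIF1Anull, where it fell from 7.77 and 8.69 (difference 4.62 ± 0.29, adjusted p = 3.5e-07). PFKFB4 was at 22.8 and 20.1 CPM in hypoxic HIF1Anull cells, near its 24.9 and 22.6 CPM in normoxia (difference 3.67 ± 0.20, adjusted p = 4.6e-08). BNIP3 (2.70 ± 0.23), PPFIA4 (2.71 ± 0.21), BNIP3L (2.22 ± 0.25), PLIN2 (2.20 ± 0.20) and FAM162A (2.15 ± 0.19) followed. The 8 genes not called were ADM, BHLHE40, VEGFA, DDIT4, MXI1, ANKRD37, PFKFB3 and CA9. Of these, ADM, BHLHE40 and DDIT4 rose by 3.37, 3.42 and 4.04 in HIF1Anull. CA9 lay under the level of 3 counts in both normoxia libraries of HIF1Anull. In hypoxia CA9 was at 0.186 and 0.325 CPM there, and at 6.38 and 7.34 CPM in shCDK8. At such low counts the test cannot tell whether the CA9 responses differ.

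Outside that list, CXCR4 (difference 5.18 ± 0.66), GPR146 (4.23 ± 0.44) and C4orf47 (3.58 ± 0.54) rose in shCDK8 and were not called up in HIF1Anull. MYBPH and ZNF425 had large differences that came from HIF1Anull: MYBPH fell there from 48.0 and 49.2 to 2.83 and 2.34 CPM and was under 0.3 CPM in all 4 shCDK8 libraries, and ZNF425 fell from 3.41 and 5.16 to 0.297 and 0.325 CPM against 5.06 and 5.01 to 4.86 and 3.22 in shCDK8. GPR110 had no counts in hypoxic HIF1Anull cells, so its fitted difference depends on the prior count and is not given as a fold.

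Several stress and sterol lists held members with a lower response than in HIF1Anull, beside 4.48% of all genes. Of 24 ATF4 target genes, 19 responded less in shCDK8, none more, with list medians of -0.06 in shCDK8 and 1.08 in HIF1Anull. DDIT3 (CHOP), a stress factor, went from 13.0 and 16.6 to 21.9 and 40.8 CPM in shCDK8 and from 16.5 and 21.3 to 453 and 618 CPM in HIF1Anull (difference -3.74 ± 0.41, adjusted p = 5.6e-05). Of 25 sterol and fatty acid genes, 18 responded less and 1 more, with medians of 0.34 and 1.81. HMGCS1, which opens the mevalonate pathway, was at 47.0 and 50.4 against 52.9 and 47.7 CPM in shCDK8, and rose from 60.8 and 79.7 to 449 and 648 CPM in HIF1Anull (difference -2.92 ± 0.25, adjusted p = 5.2e-06), with MSMO1 (-3.19 ± 0.40) and INSIG1 (-3.10 ± 0.29) alike. Of 21 unfolded protein genes 11 responded less, and of 24 heat-shock chaperones 11, with none responding more in either list. Omission of a library left 14 to 20 of the ATF4 targets, 13 to 18 of the sterol genes, 6 to 14 of the unfolded protein genes and 3 to 13 of the chaperones past the test. NR4A3 (-3.51 ± 0.56), TSC22D3 (-3.46 ± 0.33) and EID3 (-3.06 ± 0.92) were also lower, the last of these at 0.236 to 0.282 CPM in all shCDK8 libraries. HIF1A fell in shCDK8 while reads assigned to it rose in HIF1Anull, from 13.0 and 14.1 to 40.1 and 57.6 CPM (difference -2.83 ± 0.21), and gene counts do not show which of its exons they cover. In shNT and shTIP60 the list medians were -0.02 and 0.10 for ATF4 targets and -0.07 and 0.69 for sterol genes. They were 0.54 and 0.69 for unfolded protein genes and -0.82 and -0.72 for chaperones. No member of these lists was called different from shNT or shTIP60 in the same test, while other fits called a few.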

How the data were processed

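The deposited values are raw read counts per gene in 16 columns, all used (0 unused), with no scaling by the authors per the labels. Columns were assigned to groups by name. The submitters' processing notes list GSNAP and HTSeq among the tools, beside DESeq, and name the build hg19. Annotation, strand setting and read filters are not given in the sources used here.

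Genes were filtered by group (10 counts, 15 in total) and fitted in edgeR 4.0.16 (R 4.3.3) by a robust quasi-likelihood model with TMM factors and 1 coefficient per group over 16 libraries (8 residual degrees of freedom). P-values, two-sided, were adjusted by Benjamini-Hochberg over 15520 genes at 0.05. The fit was tested on simulated counts in which few genes changed. For the response it recovered 44 of 66 changes of 2-fold, and 3 of 113 calls were false. For the difference from HIF1Anull it recovered 1 of 66 changes of 1.5-fold, 14 of 65 of 2-fold and 46 of 63 of 4-fold. There 4 of 65 calls were false. Named genes were the kinase module, the HIF list, the 12 largest called changes each way at 5 CPM or more without overlap, up to 6 members per list by adjusted p with called members that moved against their list and any member of lists of at most 16, and up to 8 genes each way per difference. The rankings of changes and differences left out symbols of loci, clones, histones and small RNAs. Symbols ending in P and digits were also left out, with a few exceptions. Differences were ranked at 5 CPM or more in the highest group, with library differences of the lines not overlapping. Members and lists were chosen with earlier results of these data known. Alternatives included DESeq2 1.42.0. The ± values are standard errors from the edgeR fit and include its estimate of the spread between libraries. Floors cover counting error only.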

Additional observations from a re-analysis of the deposited data

Results flagged for a closer look

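Differences between lines in the response to hypoxia passed the test for 6 genes against shNT, as log2 differences, shCDK8 minus the other line: TFRC (1.77), HPCAL1 (-1.33), TNFRSF10D (-1.64), ANGPTL4 (-1.70), HOXA4 (-2.06) and DUSP1 (-2.23). Against shTIP60 they passed for GDF15 (-1.19), FAM89B (-1.45), HILPDA (-1.86), CTGF (-1.91), TSC22D3 (-2.04) and DUSP1 (-2.64).

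Against HIF1Anull the largest differences are given within the limits set for named genes. Upward they were in GPR110 (6.34, a fitted value that depends on the prior count and is no bound), CXCR4 (5.18), EGLN3 (4.62), MYBPH (4.41), GPR146 (4.23), PFKFB4 (3.67), C4orf47 (3.58) and ZNF425 (3.45). The largest downward were in DDIT3 (-3.74), NR4A3 (-3.51), TSC22D3 (-3.46), MSMO1 (-3.19), INSIG1 (-3.10), EID3 (-3.06), HMGCS1 (-2.92) and HIF1A (-2.83). Of the core hypoxia genes, 28 responded more and 1 less in shCDK8 than in HIF1Anull.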

How the results depend on the processing

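No called value changed sign under the alternatives run among the listed and named genes, the only ones compared one by one. Signs were not compared in the test against 1.5-fold. For the response, 589 genes (475 up, 114 down) passed a test against 1.5-fold, 3085 were called down with library totals, and leaving out a library gave 1846 to 3576 calls (1239 to 2040 up, 607 to 1536 down). For the difference from shNT, DESeq2 called 225 genes, no filter 384, a mean of at least 5 CPM 15, the test against 1.5-fold 1, and omission of a library 1 to 12. From shTIP60 the counts were 197 (DESeq2), 3 (library totals), 207 (no filter), 12 (5 CPM), 149 (groups compared), 1 (1.5-fold) and 1 to 7 (omission). From HIF1Anull they were 723 (groups compared), 468 (1.5-fold) and 755 to 2436 (omission). CDK8 knockdown was called in every setting.

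The replicate block used the series of library numbers, since columns carry no replicate number. Over 28 pairs of groups, deviations of libraries in the same series correlated at 0.031 to 0.336 (0.14 for the shCDK8 pair), with 18 over 0.1, so the numbers do not establish a pairing. With the block, 5578 genes were called (2610 down), and 532, 315 and 3391 in the differences from shNT, shTIP60 and HIF1Anull.

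Limits: 2 libraries per group, 1 line per target and counts by gene. Low genes such as CA9 and HIF1A-AS2 rest on few reads in normoxia. The replication and repair gaps against shNT are list descriptions, and the calls behind them depend on the fit.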

Other observations

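Long noncoding and nuclear RNAs were among the genes that rose in shCDK8 cells: MALAT1 went from 339 and 400 to 709 and 818 CPM (log2 1.05 ± 0.27), NEAT1, the scaffold of paraspeckles, from 286 and 314 to 565 and 427 CPM (0.72 ± 0.23), and the imprinted H19 from 4.55 and 3.68 to 14.6 and 12.8 CPM (1.74 ± 0.35). SNHG12 fell from 63.1 and 54.2 to 41.1 and 42.7 CPM (-0.48 ± 0.15). Of 12 such RNAs tested, 5 were called up and 1 down, with 3 up without normoxia library A.

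Among 21 genes of transcription elongation, 3 rose and 2 fell, close to the 13.8% and 11% of all genes, and the falls numbered 0 without normoxia library B and 1 without either hypoxia library. ELL2, a subunit of the super elongation complex, went from 17.0 and 20.8 to 38.3 and 48.8 CPM (log2 1.201 ± 0.16, adjusted p = 7.3e-05), ELL from 39.5 and 30.7 to 57.8 and 61.9 CPM (0.77 ± 0.15) and AFF4 from 16.5 and 17.7 to 22.6 and 29.2 CPM (0.60 ± 0.20). LARP7, which holds the inhibitory 7SK particle together, fell from 45.1 and 72.1 to 38.6 and 35.2 CPM (-0.67 ± 0.18), and SUPT4H1 from 114 and 136 to 84.8 and 91.4 CPM (-0.51 ± 0.12). In a list of 14 iron genes 4 rose and 1 fell, against 13.8% and 11% of all genes. TFR2, the second transferrin receptor (0.80 ± 0.15), BLVRB (0.68 ± 0.15), HMOX1, heme oxygenase (0.56 ± 0.14), and FTH1, ferritin heavy chain (0.53 ± 0.16), rose, and BLVRA fell (-0.54 ± 0.16). Without either library B, 2 of the 14 were called up. Of 11 epithelial-mesenchymal regulators and mesenchymal genes tested, 4 were called up, none down and 7 not called, with a median of 0.26. The rises included ITGA5 (1.05 ± 0.15), L1CAM (1.23 ± 0.17) and FN1 (0.83 ± 0.26).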
